A study of Mus musculus with 8 samples.

Results

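The genes described here are 40 genes of ribosome biogenesis and the Myc family, chosen by symbol from a list of nucleolar and rRNA processing genes set beside Myc. All 40 were found among the 23278 genes of each of the 4 deposited tables of the study. They comprised Myc and Mycn, 4 subunits of RNA polymerase I, 3 proteins of the box C/D and 4 of the box H/ACA small nucleolar ribonucleoproteins, 6 general nucleolar factors, 7 factors of the small ribosomal subunit and 14 factors of the large subunit. All 40 had enough signal for the authors' test in DP1 cells between genotypes and in WT cells between stages. For the remaining comparisons this held for 39, because Mycn was not tested there.

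The study measured RNA by sequencing in sorted mouse thymocytes that lacked the histone deacetylase Hdac3 or kept it. The 8 samples, all of strain C57BL/6, made 4 groups of 2: Hdac3KO DP2, WT DP2, Hdac3KO DP1 and WT DP1. All were GFP+ CD4+ CD8+ (double-positive) cells. DP2 cells were sorted as CD5hi TCRbint, and DP1 cells as CD5lo TCRblo, the earlier stage. The Hdac3KO mice were Hdac3F/F LCK-Cre+, with the Cre recombinase driven by the promoter of Lck, a T-lineage kinase gene, and the WT control mice were Hdac3+/+. The design note does not say plainly whether the WT mice carried the Cre as well, and what the GFP reports, the ages and the number of animals in each RNA pool are not given in the sources used here. Nothing says that the 2 samples of a group came from separate animals, so the p-values may measure only technical spread.

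Ribosomes are assembled in the nucleolus. RNA polymerase I transcribes the precursor of the ribosomal RNAs, small nucleolar ribonucleoproteins guide its methylation (box C/D) and pseudouridylation (box H/ACA), and large sets of assembly factors fold and cut it into the small and the large subunit. MYC is a transcription factor that binds E-box DNA with its partner MAX, and many genes of ribosome assembly are among its known targets. In the thymus, MYC and protein synthesis run high in proliferating immature thymocytes, and both are low in the small resting double-positive cells that follow.

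Each deposited table holds 1 expression value per gene and group, in FPKM (fragments scaled by transcript length and by library size), with the p-value and the adjusted p-value (q) of the authors' Cuffdiff test. A gene is called higher or lower here when q is 0.05 or less. Fold changes are log2 ratios of these FPKM, so that -1 is a halving, and their standard errors (SE) were derived from the deposited p. The targeted gene, Hdac3, was at 11.7 FPKM in Hdac3KO DP1 and 38.1 FPKM in WT DP1, and at 15.4 FPKM in Hdac3KO DP2 and 29.7 FPKM in WT DP2. Xist was at 208 FPKM in Hdac3KO DP1 and 0.0945 FPKM in WT DP1, and Kdm5d, a gene of the Y chromosome, at 0.264 FPKM in Hdac3KO DP1 and 20.0 FPKM in WT DP1, with a like contrast in DP2, so sex and genotype cannot be told apart. The 11 markers of double-positive thymocytes summed to 8277 FPKM in Hdac3KO DP2, 4014 FPKM in WT DP2, 7483 FPKM in Hdac3KO DP1 and 6841 FPKM in WT DP1. The 6 double-negative markers summed to 54.5, 232, 36.7 and 59.9 FPKM in the same order of groups. They did not move together: of 4 tested in DP2, 2 were higher and 2 lower without Hdac3, and of 3 tested in DP1, 1 was higher and 1 lower. The 8 myeloid and dendritic markers summed to 20.0, 6.19, 10.9 and 3.96 FPKM. Only 1 of them, Itgam, was tested between genotypes, and it was called higher without Hdac3 at both stages. Emr1, Fcgr3 and Clec9a were listed at 0 in Hdac3KO DP1. Markers of B cells, erythroid cells, thymic epithelium and gamma delta T or NK cells each summed to at most 17.0 FPKM in any group. Alas2, the only 1 of 5 erythroid markers tested, was higher in Hdac3KO DP1. Psmb11 was the only 1 called of 3 thymic epithelium markers tested there, and was higher. Those 3 did not move together, with 2 above and 1 below WT. In RNA from sorted bulk cells, fewer cells of a type and less RNA per cell cannot be told apart.

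Without Hdac3, DP1 cells had less Myc, less Mycn and less of 8 ribosome biogenesis transcripts. Of the 40 genes, 10 were lower and 0 were higher in the authors' deposited table for DP1, against 12.9% lower and 10.7% higher among all 10511 genes tested. At an unadjusted p under 0.05, Cuffdiff gave 18 of the 40 as lower and 0 as higher. The share of all genes at that unadjusted p was not computed for any of the 4 comparisons, so these counts have no background beside them. Of the 40, 36 lay below their WT value, beside 5865 of all 10511 genes tested. The median log2 change of the 40 was -0.52, beside -0.10 over all genes tested. The 30 genes that did not pass had log2 changes between -0.79 and 0.25, and 26 of them were below WT. The 4 above WT were Utp18, Nop14, Nop16 and Noc3l. Besides Gar1, 5 genes came within a q of 0.10 in the authors' deposited table: Nop10, at 28.1 FPKM in Hdac3KO DP1 and 45.9 FPKM in WT DP1, Nolc1, at 16.9 FPKM in Hdac3KO DP1 and 25.5 FPKM in WT DP1, Noc2l, at 20.8 FPKM in Hdac3KO DP1 and 31.3 FPKM in WT DP1, Wdr12 and Rrp1b.

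**Figure D1:**
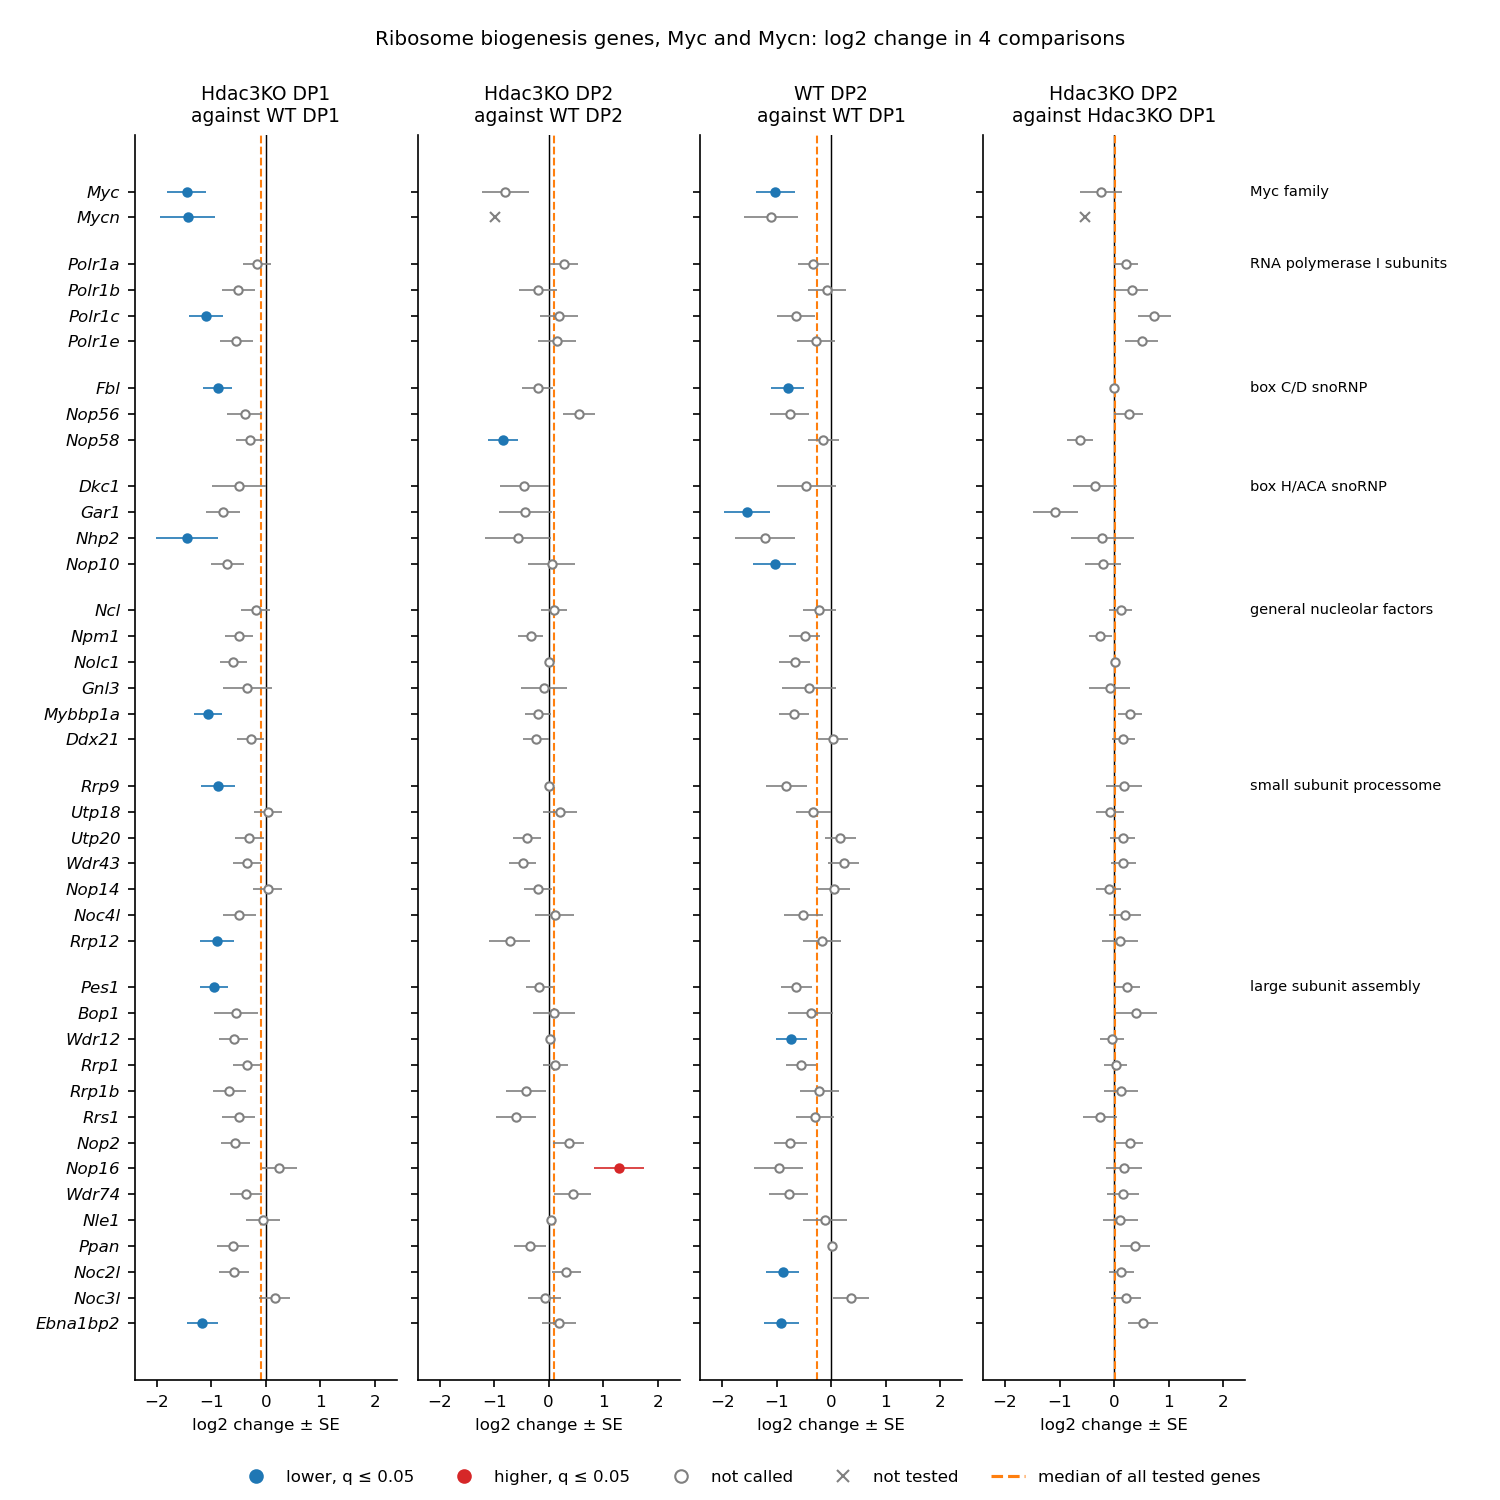
Log2 change of the 40 genes in each of the 4 comparisons, grouped by role, with bars of 1 SE; the bar is left out where the deposited p is 0.9 or above or where Cuffdiff gave no test. The dashed line is the median of all tested genes. Filled points passed a q of 0.05: 10 in Hdac3KO DP1 against WT DP1, 2 in Hdac3KO DP2 against WT DP2, 7 in WT DP2 against WT DP1 and 0 in Hdac3KO DP2 against Hdac3KO DP1.

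Both Myc genes fell in DP1. Myc was at 2.08 FPKM in Hdac3KO DP1 and 5.70 FPKM in WT DP1, or 36.5% of the WT value (log2 change -1.45 ± 0.36 SE, q = 0.000879 in the authors' deposited table). Mycn, a paralog that acts in other immature lineages, was at 0.600 FPKM in Hdac3KO DP1 and 1.62 FPKM in WT DP1 (log2 change -1.43 ± 0.50 SE, q = 0.0249 in the authors' deposited table). The Mycn level was the lowest of the 40 genes in both groups. Where p was at its smallest deposited value, 5e-05, as for Myc, the SE is an upper bound.

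Among the RNA polymerase I subunits, 1 of 4 (25%) fell, beside 12.9% of all genes tested. Polr1c, a subunit shared with RNA polymerase III, was at 8.61 FPKM in Hdac3KO DP1 and 18.4 FPKM in WT DP1 (log2 change -1.10 ± 0.32 SE, q = 0.00518 in the authors' deposited table). The largest subunit, Polr1a, was at 7.19 FPKM in Hdac3KO DP1 and 8.07 FPKM in WT DP1, and did not pass. The second largest, Polr1b, was at 3.70 FPKM in Hdac3KO DP1 and 5.26 FPKM in WT DP1, also without passing.

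Of the 7 small nucleolar ribonucleoprotein genes, 2 fell, Fbl and Nhp2, beside 12.9% of all genes tested. Fibrillarin (Fbl), the methyltransferase of the box C/D particle, was at 24.6 FPKM in Hdac3KO DP1 and 45.3 FPKM in WT DP1 (log2 change -0.88 ± 0.27 SE, q = 0.00833 in the authors' deposited table). Nhp2, a core protein of the box H/ACA particle, was at 10.3 FPKM in Hdac3KO DP1 and 28.1 FPKM in WT DP1 (log2 change -1.44 ± 0.57 SE, q = 0.0473 in the authors' deposited table). Nhp2 had the widest error of the called genes and lay closest to the threshold. Gar1, another box H/ACA protein, was just past the threshold at 6.37 FPKM in Hdac3KO DP1 and 10.98 FPKM in WT DP1 (q = 0.0553 in the authors' deposited table). Dkc1, the pseudouridine synthase of the particle and an X-linked gene, was at 26.0 FPKM in Hdac3KO DP1 and 36.6 FPKM in WT DP1 and did not pass.

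Of the general nucleolar factors, 1 of 6 (16.7%) fell, beside 12.9% of all genes tested. Mybbp1a, a nucleolar MYB-binding protein, was at 15.1 FPKM in Hdac3KO DP1 and 31.5 FPKM in WT DP1 (log2 change -1.06 ± 0.26 SE, q = 0.000879 in the authors' deposited table). The abundant nucleolar proteins did not pass: nucleophosmin (Npm1) was at 280 FPKM in Hdac3KO DP1 and 393 FPKM in WT DP1, and nucleolin (Ncl) at 144 FPKM in Hdac3KO DP1 and 164 FPKM in WT DP1.

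Of the subunit assembly factors, 2 of 7 (28.6%) fell for the small subunit and 2 of 14 (14.3%) for the large subunit. The share of all genes tested was 12.9%, near that of the large subunit. Rrp9, a protein of the U3 particle that acts on the small subunit, was at 5.08 FPKM in Hdac3KO DP1 and 9.32 FPKM in WT DP1 (log2 change -0.88 ± 0.32 SE, q = 0.0293 in the authors' deposited table). Rrp12, known from yeast as a factor of subunit export, was at 1.98 FPKM in Hdac3KO DP1 and 3.68 FPKM in WT DP1 (log2 change -0.89 ± 0.32 SE, q = 0.0258 in the authors' deposited table). Both were expressed at low levels. Pes1, a core of the complex with Bop1 and Wdr12 that matures the large subunit RNA, was at 17.2 FPKM in Hdac3KO DP1 and 33.3 FPKM in WT DP1 (log2 change -0.95 ± 0.25 SE, q = 0.00207 in the authors' deposited table). Its partners did not pass: Bop1 was at 9.16 FPKM in Hdac3KO DP1 and 13.4 FPKM in WT DP1, and Wdr12 at 59.9 FPKM in Hdac3KO DP1 and 90.4 FPKM in WT DP1. Ebna1bp2, whose yeast counterpart is needed for the large subunit, was at 6.35 FPKM in Hdac3KO DP1 and 14.2 FPKM in WT DP1 (log2 change -1.17 ± 0.29 SE, q = 0.000879 in the authors' deposited table).

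**Figure D2:**
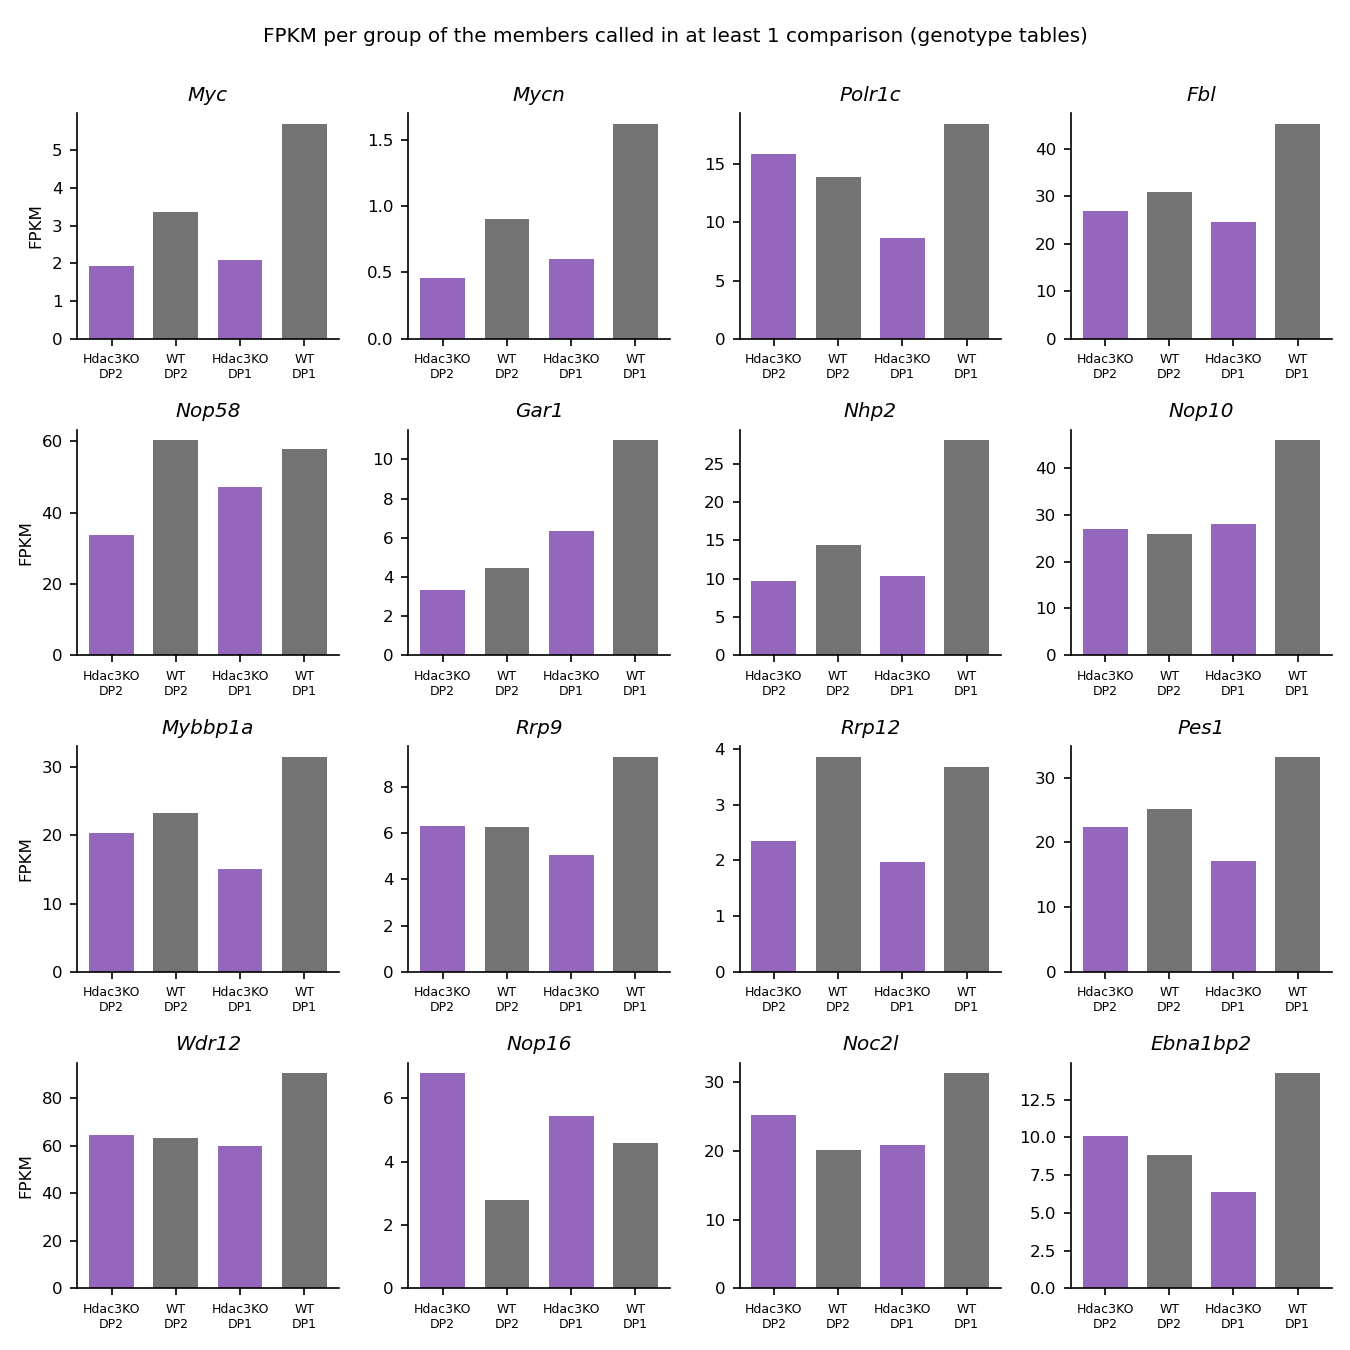
Bars give the FPKM of the 16 genes called in at least 1 of the 4 comparisons, as 1 deposited value per group with no error, from the genotype tables. The DP2 pair and the DP1 pair come from tables normalized apart, so bars are compared within a pair; Myc, for example, is at 2.08 FPKM in Hdac3KO DP1 and 5.70 FPKM in WT DP1, and at 1.94 FPKM in Hdac3KO DP2 and 3.36 FPKM in WT DP2.

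Other groups of transcripts moved in the same DP1 comparison. Of 25 MYC targets outside the nucleolus, 17 were lower and 0 were higher (median log2 change -0.91), and of 18 housekeeping genes 11 were lower and 0 were higher (median -0.82). Of 30 S phase genes 19 were lower, and of 30 G2/M genes 14 were lower, with 0 higher in either list. The log2 change also followed transcript length. Genes that reached 10 FPKM in each of the groups were split into 4 classes of like size by length. In the shortest class, up to 2114 bases, the median was -0.52 over all genes and -0.49 over the 5 members, and in the longest class it was 0.29 over all genes and -0.30 over the 3 members. With this length trend removed, 8 of the 40 were lower, against 5.68% of all genes. Of these 8, 5 were among the 10 called as deposited (Myc, Mybbp1a, Rrp12, Pes1 and Ebna1bp2), and 3 were not (Nop58, Utp20 and Wdr12). Lengths are those of the longest annotated transcript, at 9507 bases for Nop58, 8821 for Utp20, 10012 for Wdr12 and 8202 for Ncl. Whether these long transcripts are the ones expressed was not tested, so the added calls and the members' median in the longest class depend on them. Myc, Mybbp1a, Pes1 and Ebna1bp2 also passed with the GC trend removed and with the changes centred on the median gene. Polr1c (log2 change -0.55), Fbl (-0.59), Nhp2 (-0.82), Rrp9 (-0.41) and Mycn (-1.19) no longer passed with the length trend removed, while Nhp2 (-1.33), Rrp9 (-0.76) and Rrp12 (-0.78) fell short of the threshold when centred, with changes close to the deposited ones. The part of cell cycle, sex and RNA quality in the members' changes was not tested.

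**Figure D3:**
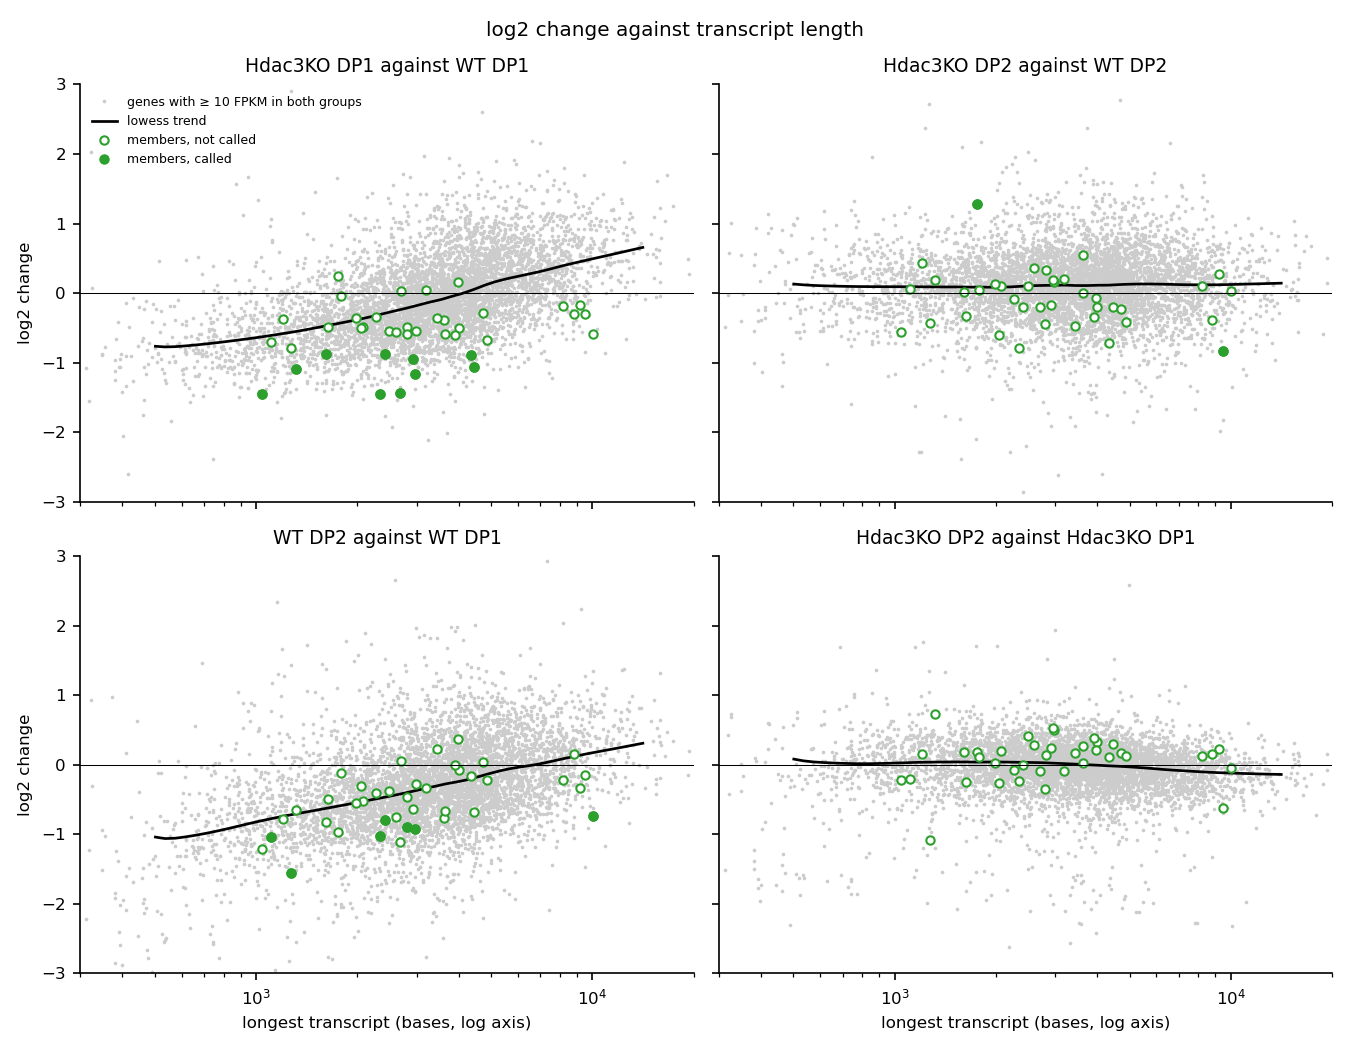
Log2 change against transcript length (log axis, longest GENCODE transcript) for genes of 10 FPKM or more in each group (grey) and for the members (green, filled where called), with a lowess trend, in the 4 comparisons; the vertical axis ends at 3 log2 units either side of 0. The shortest and longest length classes have medians of -0.52 and 0.29 in Hdac3KO DP1 against WT DP1, and of 0.09 and 0.13 in Hdac3KO DP2 against WT DP2.

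Promoters of genes called in DP1 or between WT stages are shown so that the E-box, the sequence that MYC binds with MAX, can be looked for. Of those shown, Mybbp1a and Pes1 hold an E-box, and Ebna1bp2, Gar1, Polr1c and Noc2l do not. The sequences are RefSeq, assembly GRCm38.p6, on the strand of the gene and 5′ to 3′, from 170 bases before the annotated start to 30 after it, and an E-box (CACGTG, which reads the same on both strands) is in capitals. The start itself is counted as the first base after it. For Mybbp1a the 170 bases before the start are given, with a separate window of 30 bases around its E-box, which begins at base 41 in this count. Shown are those with an entry that were called in the most tables, then by smallest q. Ebna1bp2 lies at chr4:118620629-118620828 (+), Mybbp1a at chr11:72441157-72441326 (+) and its window at chr11:72441347-72441376 (+), Pes1 at chr11:3963805-3964004 (+), Gar1 at chr3:129831367-129831566 (-), Polr1c at chr17:46248016-46248215 (-) and Noc2l, the first of its promoters, at chr4:156235845-156236044 (+).
Ebna1bp2: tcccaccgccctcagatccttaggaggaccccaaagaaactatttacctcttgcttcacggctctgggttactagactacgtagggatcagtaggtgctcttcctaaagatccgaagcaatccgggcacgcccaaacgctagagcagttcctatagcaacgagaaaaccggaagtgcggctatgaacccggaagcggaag
Mybbp1a: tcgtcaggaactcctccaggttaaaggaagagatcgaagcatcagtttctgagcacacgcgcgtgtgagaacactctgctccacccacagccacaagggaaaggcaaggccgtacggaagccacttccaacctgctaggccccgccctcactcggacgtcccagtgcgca
Mybbp1a E-box window: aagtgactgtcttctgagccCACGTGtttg
Pes1: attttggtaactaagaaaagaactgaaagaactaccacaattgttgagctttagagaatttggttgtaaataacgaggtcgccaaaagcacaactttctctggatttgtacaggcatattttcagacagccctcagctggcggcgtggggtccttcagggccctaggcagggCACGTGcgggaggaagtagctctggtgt
Gar1: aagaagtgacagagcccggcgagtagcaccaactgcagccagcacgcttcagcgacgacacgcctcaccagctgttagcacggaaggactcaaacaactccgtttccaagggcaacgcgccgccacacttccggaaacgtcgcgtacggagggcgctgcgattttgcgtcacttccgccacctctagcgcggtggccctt
Polr1c: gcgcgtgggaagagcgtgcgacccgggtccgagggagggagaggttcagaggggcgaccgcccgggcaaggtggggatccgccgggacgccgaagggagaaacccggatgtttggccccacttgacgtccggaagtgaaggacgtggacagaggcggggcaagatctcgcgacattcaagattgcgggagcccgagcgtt
Noc2l: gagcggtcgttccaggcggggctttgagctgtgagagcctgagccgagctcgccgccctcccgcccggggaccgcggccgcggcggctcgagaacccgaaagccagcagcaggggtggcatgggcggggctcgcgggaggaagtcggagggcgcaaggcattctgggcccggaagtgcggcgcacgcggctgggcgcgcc

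A promoter entry was found for 34 of the 40 genes. Myc, Fbl, Npm1, Rrp12, Bop1 and Rrs1 had none. In the full window of 300 bases (250 before the start and 50 after it), 7 of the 34 held an E-box, or 20.6%: Mybbp1a, Utp18, Utp20, Wdr43, Pes1, Nop2 and Nle1. The share was 12.2% of the 7409 genes tested in DP1 that have an entry, 8.09% of all 27025 genes with an entry and 7.15% of all 32851 promoters. In Pes1 the E-box begins at base 3, counting the start itself as the first base. Of the 7 genes with an E-box, 2 were lower in Hdac3KO DP1 (median log2 change -0.35). Of the 27 without an E-box, 5 were lower (median -0.51). Among all genes tested 12.9% were lower, and 7 genes are too few to set against this share or against the 27. A match describes these letters in this window and is not a measured binding site.

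In DP2 cells few of the genes differed between genotypes beyond the threshold. Of the 39 genes tested, 1 was higher (Nop16) and 1 was lower (Nop58) in the authors' deposited table for DP2, against 6.44% higher and 4.32% lower among all 10674 genes tested. At an unadjusted p under 0.05 the counts were 1 higher and 1 lower. The median log2 change of the members was -0.07, beside 0.10 over all genes tested. Of the members 19 lay above and 20 below their WT value, beside 6172 above and 4502 below among all genes tested. In the same DP2 comparison 8 of 30 S phase genes and 18 of 30 G2/M genes were lower.

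Nop16, a nucleolar factor of the large subunit, rose to 6.79 FPKM in Hdac3KO DP2, against 2.78 FPKM in WT DP2 (log2 change 1.29 ± 0.45 SE, q = 0.0444 in the authors' deposited table). In DP1 Nop16 was at 5.45 FPKM in Hdac3KO cells and 4.60 FPKM in WT cells and did not pass. Its DP2 log2 change was 1.17 when centred on the median gene (Benjamini-Hochberg q = 0.0780) and 1.20 with the length trend removed (q = 0.0688), so the call was lost with little move in the change. Nop58, a core protein of the box C/D particle, fell to 33.9 FPKM in Hdac3KO DP2, against 60.3 FPKM in WT DP2 (log2 change -0.83 ± 0.28 SE, q = 0.0296 in the authors' deposited table). Its partners in the particle did not pass: Nop56 was at 99.8 FPKM in Hdac3KO DP2 and 67.9 FPKM in WT DP2, and Fbl at 26.9 FPKM in Hdac3KO DP2 and 30.9 FPKM in WT DP2.

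Of the genes that fell in DP1, 0 passed in DP2, where 4.32% of all genes tested were lower and 6.44% higher. Mycn was not tested there. How many of all the genes lower in DP1 passed in DP2 was not computed, so this count is not particular to the members. Myc was at 1.94 FPKM in Hdac3KO DP2 and 3.36 FPKM in WT DP2 (log2 change -0.79 ± 0.43 SE, q = 0.241 in the authors' deposited table). Polr1c was at 15.8 FPKM in Hdac3KO DP2 and 13.9 FPKM in WT DP2. Ebna1bp2 was at 10.1 FPKM in Hdac3KO DP2 and 8.86 FPKM in WT DP2. For these 2 genes, which were at 46.7% and 44.6% of WT in DP1, the DP2 level without Hdac3 was 114% of WT. Mybbp1a was at 20.4 FPKM in Hdac3KO DP2 and 23.3 FPKM in WT DP2, and Pes1 at 22.3 FPKM in Hdac3KO DP2 and 25.1 FPKM in WT DP2.

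The difference between the effects of the genotype in DP2 and in DP1 was tested itself. By the genotype tables, 0 of the 39 genes passed, with 2.08% of all 10144 genes passing, and 7 members had an unadjusted p under 0.05, beside 18.6% of all genes. The share of the members was near that of all genes, so the count is not particular to them. All 7 had a higher change in DP2 than in DP1: Ebna1bp2, Polr1c, Mybbp1a, Noc2l, Nop2, Pes1 and Nop56. How many of all genes had a higher change in DP2 was not computed. Among the 7 members, the direction is given as a description only. The largest difference of the 7 members was that of Ebna1bp2, 1.36 ± 0.42 on the log2 scale (SE, Benjamini-Hochberg q = 0.0535 over all genes). By the stage tables, made from these same libraries, the difference of Ebna1bp2 was 1.44 ± 0.42 (q = 0.0393), and it was the only member that passed, beside 3.13% of all genes. Over the 39 genes the median difference was 0.48, beside 0.20 over all genes.

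**Figure D4:**
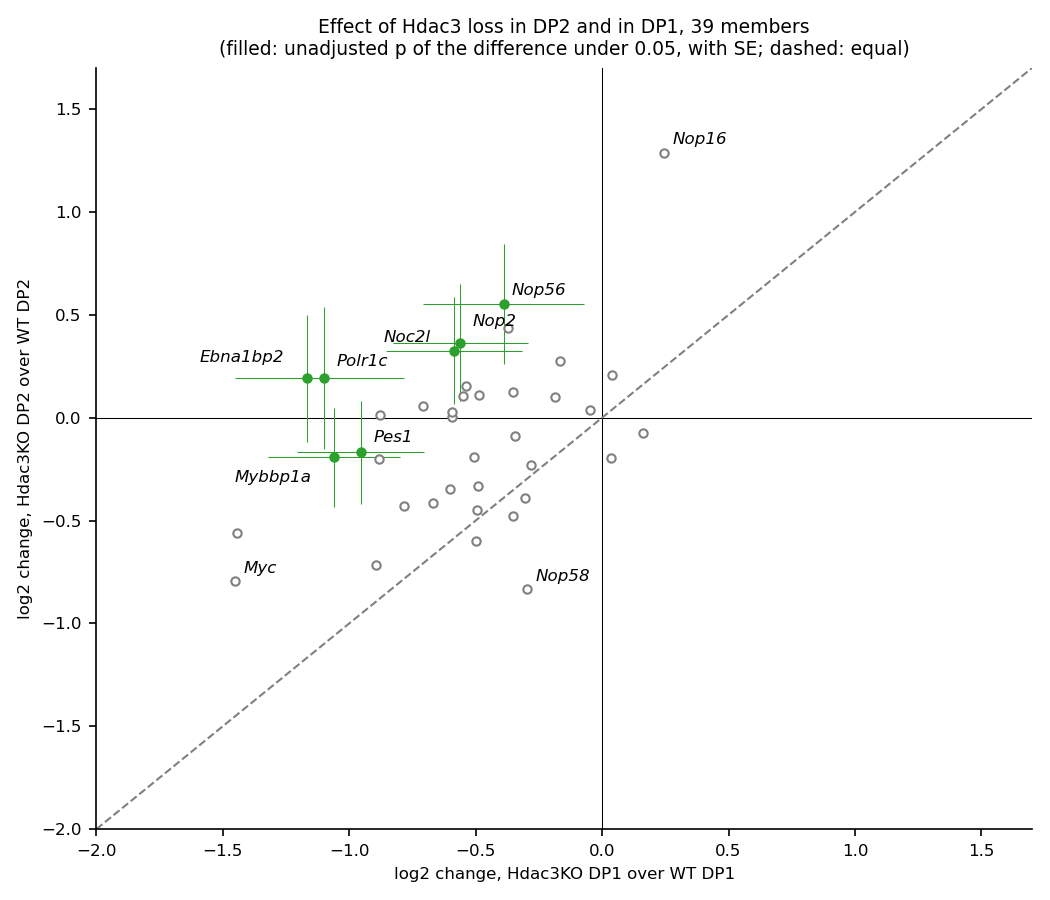
Log2 change of Hdac3KO DP2 over WT DP2 (vertical) against that of Hdac3KO DP1 over WT DP1 (horizontal) for 39 members; the dashed line marks equal changes and bars of 1 SE are drawn for the 7 filled genes, whose unadjusted p of the difference is under 0.05. Points above the line, 33 of 39, had a higher change in DP2 than in DP1. The median gene of the whole comparison also lay above it, with a difference of 0.20, beside 0.48 for the members. The share of all genes above the line was not computed.

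In WT cells Myc and 6 biogenesis genes were lower at the later stage, a share near that of all genes. Between WT DP2 and WT DP1, 7 of the 40 genes (17.5%) were lower and 0 were higher in the authors' deposited table for WT stages, against 16.8% lower and 5.56% higher among all 10851 genes tested. At an unadjusted p under 0.05, 18 were lower and 0 were higher, with no share of all genes computed at that threshold. The median log2 change of the members was -0.50, beside -0.27 over all genes tested.

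Myc was at 3.19 FPKM in WT DP2 and 6.50 FPKM in WT DP1 (log2 change -1.03 ± 0.36 SE, q = 0.0273 in the authors' deposited table). Mycn was at 0.856 FPKM in WT DP2 and 1.85 FPKM in WT DP1 and did not pass. The largest fall among the members was that of Gar1, at 4.26 FPKM in WT DP2 and 12.5 FPKM in WT DP1 (log2 change -1.55 ± 0.42 SE, q = 0.00311 in the authors' deposited table). Nop10, a further box H/ACA protein, was at 25.3 FPKM in WT DP2 and 51.9 FPKM in WT DP1 (log2 change -1.04 ± 0.39 SE, q = 0.0407 in the authors' deposited table). With Nop10 and Gar1, 2 of the 4 box H/ACA genes were lower, beside 16.8% of all genes tested, and the list's median was -1.13. Fbl was at 29.6 FPKM in WT DP2 and 51.5 FPKM in WT DP1 (log2 change -0.80 ± 0.30 SE, q = 0.0387 in the authors' deposited table).

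In large subunit assembly 3 of 14 genes (21.4%) were lower between WT stages, beside the 16.8% of all genes. Ebna1bp2 was at 8.55 FPKM in WT DP2 and 16.1 FPKM in WT DP1 (log2 change -0.92 ± 0.32 SE, q = 0.0262 in the authors' deposited table). Noc2l, a nucleolar protein of the large subunit pathway, was at 19.2 FPKM in WT DP2 and 35.6 FPKM in WT DP1 (log2 change -0.89 ± 0.31 SE, q = 0.0224 in the authors' deposited table). Wdr12 was at 61.5 FPKM in WT DP2 and 102 FPKM in WT DP1 (log2 change -0.73 ± 0.29 SE, q = 0.0469 in the authors' deposited table). None of the RNA polymerase I subunits, the general nucleolar factors or the small subunit factors passed.

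The WT stage calls rested on the scale of the table. The median gene among those that reached 10 FPKM in each group was at a log2 change of -0.33. Centred on it, only Gar1 of the 40 remained below the threshold, and with the length trend removed only Wdr12 did, with the members' median at -0.07. Lengths are those of the longest annotated transcript, which for Wdr12 is 10012 bases. In the shortest class of transcripts the median change was -0.69 over all genes and -0.72 over the 6 members, and in the longest class 0.01 over all genes and -0.22 over the 3 members. Of the whole table's calls 24.9% were higher as deposited, 62.5% when centred and 64.6% with length removed. In the genotype comparison of DP1 these shares were 45.2%, 60.2% and 61%, and in that of DP2 59.8%, 43% and 43.3%. Between WT stages 27 of 30 S phase genes, 25 of 30 G2/M genes and 6 of 11 double-positive markers were lower. So were 10 of 18 housekeeping genes, with 0 higher (median log2 change -0.88). The part of these lists in the members' changes was not tested.

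Without Hdac3, no member passed between the stages. Between Hdac3KO DP2 and Hdac3KO DP1, 0 of 39 genes were higher and 0 were lower in the authors' deposited table for Hdac3KO stages, against 1.78% higher and 4.65% lower (6.43% either way) among all 10231 genes tested, and at an unadjusted p under 0.05 Cuffdiff gave 1 higher and 2 lower. Polr1c was at 14.4 FPKM in Hdac3KO DP2 and 8.64 FPKM in Hdac3KO DP1 (log2 change 0.74 ± 0.30 SE, q = 0.150 in the authors' deposited table). Gar1 was at 3.01 FPKM in Hdac3KO DP2 and 6.36 FPKM in Hdac3KO DP1 (log2 change -1.08 ± 0.41 SE, q = 0.107 in the authors' deposited table). Nop58 was at 30.8 FPKM in Hdac3KO DP2 and 47.6 FPKM in Hdac3KO DP1 (log2 change -0.63 ± 0.24 SE, q = 0.0960 in the authors' deposited table). Myc was at 1.75 FPKM in Hdac3KO DP2 and 2.07 FPKM in Hdac3KO DP1. The median of the members was 0.13, beside 0.01 over all genes tested. In this comparison, where no member passed, 26 of 30 S phase genes and 28 of 30 G2/M genes were lower. The comparisons are not independent: the DP1 genotype and the WT stage comparison share WT DP1, and the Hdac3KO stage comparison uses the same 2 Hdac3KO groups as the genotype comparisons.

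**Figure D5:**
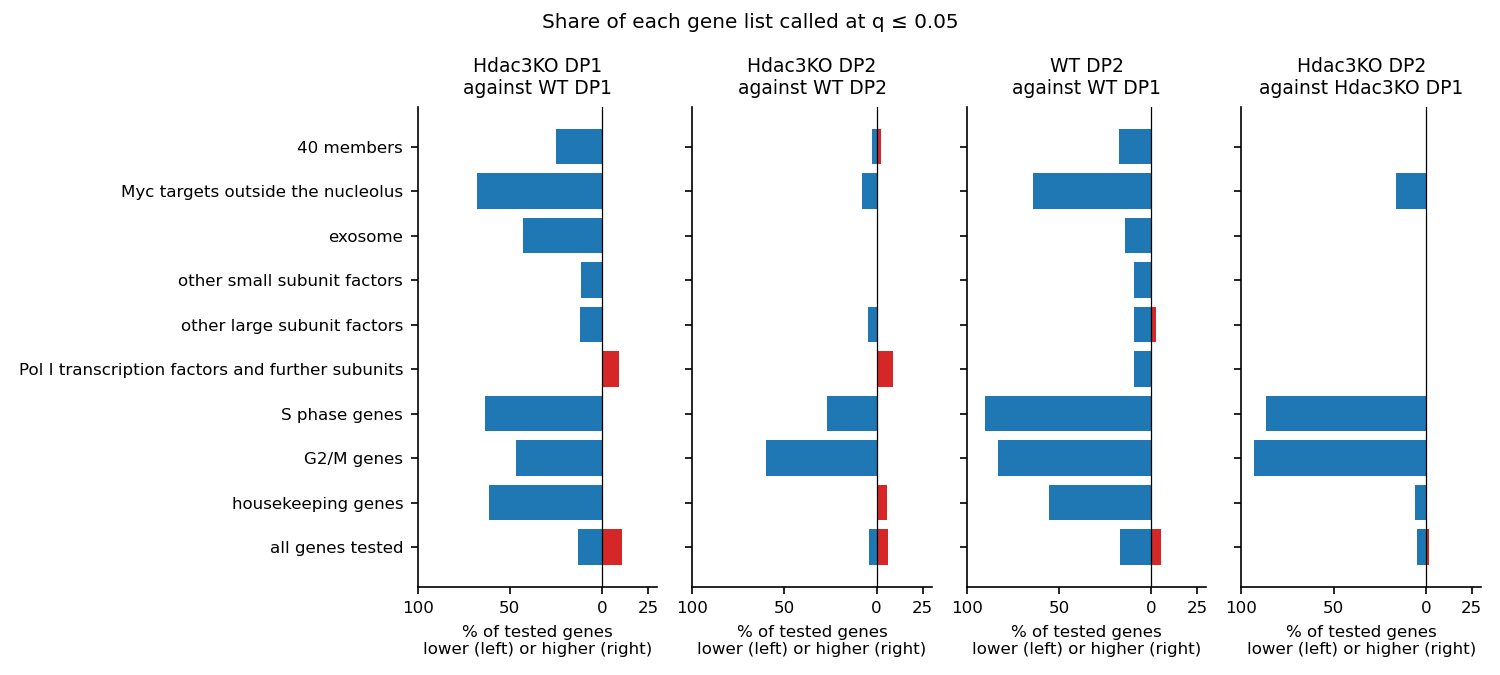
Share of tested genes in each list called lower (bars to the left) or higher (bars to the right) at a q of 0.05, in percent, in the 4 comparisons. In Hdac3KO DP1 against WT DP1, 25% of the 40 members were lower, beside 68% of the MYC targets outside the nucleolus and 12.9% of all genes tested.

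By role, the median log2 changes of Hdac3KO DP1 over WT DP1 were -0.52 for RNA polymerase I subunits, -0.39 for box C/D, -0.75 for box H/ACA, -0.42 for general nucleolar factors, -0.35 for the small subunit and -0.56 for the large subunit. In Hdac3KO DP2 over WT DP2 they were 0.17, -0.20, -0.44, -0.14, -0.20 and 0.07 in the same order. Without Myc and Mycn, 8 of the 38 remaining genes (21.1%) were lower in Hdac3KO DP1 (median -0.50), beside 12.9% of all genes tested. Of the same 38, 1 was higher and 1 lower in Hdac3KO DP2. In WT DP2 against WT DP1, 6 (15.8%) were lower, beside 16.8% of all genes tested.

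Further assembly factors of both subunits were called lower in DP1 at a share near that of all genes. Of 43 other small subunit factors tested, 5 (11.6%) were lower in Hdac3KO DP1, beside 12.9% of all genes, and 0 were higher, with Pwp2 at 3.90 FPKM in Hdac3KO DP1 and 7.45 FPKM in WT DP1. Of 42 other large subunit factors, 5 (11.9%) were lower and 0 were higher, with Eif6, an anti-association factor of the large subunit, at 13.3 FPKM in Hdac3KO DP1 and 25.7 FPKM in WT DP1. The exosome, which trims precursor rRNA, had 6 of 14 genes (42.9%) lower and 0 higher, with Mphosph6 at 12.8 FPKM in Hdac3KO DP1 and 31.2 FPKM in WT DP1. In DP2 between genotypes the counts were 0 of 43, 2 of 42 (Brix1 and Mdn1, both lower) and 0 of 14. Between WT stages they were 4 lower of 43 (9.30%), 4 lower and 1 higher (Mdn1) of 42 (9.52% lower), and 2 lower of 14 (14.3%), each below the 16.8% of all genes. Between Hdac3KO stages 0 of these genes passed.

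Among 13 MYC network partners and antagonists tested, 2 (15.4%) were lower in Hdac3KO DP1 and 1 (7.69%) was higher. Both shares were near those of all genes tested, 12.9% lower and 10.7% higher, and 7 of the 13 lay above WT and 6 below. Those lower were Ruvbl1 and Ruvbl2, ATPases that act with MYC, and the higher was Mga, a MAX-binding antagonist. Ruvbl1 was at 34.7 FPKM in Hdac3KO DP1 and 70.5 FPKM in WT DP1, and Mga at 51.2 FPKM in Hdac3KO DP1 and 31.2 FPKM in WT DP1. In DP2, Mxd4, another MAX-binding antagonist, was higher at 207 FPKM in Hdac3KO DP2 and 126 FPKM in WT DP2. It was the only 1 of the 13 called there (7.69%), beside 6.44% higher among all genes tested. Between WT stages 4 of 13 (30.8%) were lower and 1 (7.69%) was higher, beside 16.8% and 5.56% of all genes tested. Between Hdac3KO stages 0 passed. Of 11 further RNA polymerase I factors 1 (9.09%) was higher in each genotype comparison, Twistnb in DP1 and Taf1c in DP2. Among all genes tested 10.7% were higher in DP1 and 6.44% in DP2. MYC targets outside the nucleolus were 17 of 25 lower in Hdac3KO DP1, with Nme2 at 28.0 FPKM in Hdac3KO DP1 and 75.9 FPKM in WT DP1, 2 of 25 lower in Hdac3KO DP2 (Odc1 and Ran), 16 of 25 lower in WT DP2 against WT DP1 and 4 of 25 lower in Hdac3KO DP2 against Hdac3KO DP1.

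Across the 4 comparisons 16 of the 40 genes were called at least once and 24 were called in none. The share of all genes called at least once was not computed. Single comparisons called 23.6% (DP1 genotypes), 10.8% (DP2 genotypes), 22.3% (WT stages) and 6.43% (Hdac3KO stages) of all genes tested, in either direction. The annotation places snoRNA genes in 7 members, 21 within their bounds, which are processed from introns: Nop56 holds 5, Nop58 4, Ncl, Gnl3 and Wdr43 3 each, Ppan 2 and Dkc1 1. Of these 7 genes, 0 were called in DP1 between genotypes (median log2 change -0.35) and 1, Nop58, in DP2. The shares of all genes called there were 23.6% and 10.8%, and 7 genes are too few to set against them. In GENCODE, 15 members have an exon that overlaps a gene of any type on the opposite strand. On the same strand only protein-coding and long noncoding genes were searched, and 0 members had an exon that overlaps one. Whether the authors counted by strand is not given in the sources used here, so reads of the opposite genes may be included. Myc lies at chr15:61985391-61990374 (+), Ebna1bp2 at chr4:118620799-118627776 (+), Mybbp1a at chr11:72441355-72451768 (+) and Pes1 at chr11:3963975-3980004 (+) on mm10.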

How the data were processed

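Per the labels' protocols, Trizol-extracted total RNA was used after ribosomal RNA depletion for stranded Clontech SMARTer libraries. Listed in the submitters' processing notes are mm10, Cuffdiff 2.1.1, TopHat2 2.0.11 and Trimmomatic 0.32. The annotation and settings are not given in the sources used here. The authors deposited FPKM, p-values, q-values and a test statistic (a score that was not used), 1 value per gene and group, in 4 Cuffdiff tables that were normalized apart. The deposited log2 column was damaged, so log2 changes were computed from the FPKM. Depth is unknown, since low FPKM gave no common step. The q-value at 0.05 was the test. SE are the log2 change over the normal quantile of the deposited p (smallest 5e-05). The interaction used their root summed squares and Benjamini-Hochberg adjustment. Length and GC (longest GENCODE M21 transcript) were removed by lowess (fraction 0.3). Python 3.11.15, pandas 2.3.3, SciPy 1.17.1 and statsmodels 0.14.6 were used. Members and lists were chosen with earlier results of these data known. Named genes are every called member, those nearest the threshold, the defining members of each complex and the largest called changes of the other lists. Nop56, marker genes and some members near the threshold were named after their values were seen. Alternatives were other thresholds, SE multiplied by 1.5, an FPKM minimum of 5, a pseudocount of 1, adjustment over all 4 tables, centring and the trend removals.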

Additional observations from a re-analysis of the deposited data

How the results depend on the processing

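The number of members lower in Hdac3KO DP1 against WT DP1, 10, was 6 at a q of 0.01, 16 at a q of 0.10, 6 with a log2 change of at least 1 and 6 with the GC trend removed. It was 7 when centred, 8 with the length trend removed or with at least 5 FPKM, and 9 when adjusted over all 4 tables. The members' median there, -0.52, was -0.33 with the GC trend removed. In Hdac3KO DP2 against WT DP2 the 1 higher member became 0 at a q of 0.01, when centred, and with the length or the GC trend removed. The 1 lower member became 0 at a q of 0.01, with a log2 change of at least 1 and with the GC trend removed. The members' median there changed sign from -0.07 to 0.011 with at least 5 FPKM, and was -0.19 when centred, -0.18 with the length trend removed and -0.28 with the GC trend removed. In WT DP2 against WT DP1 the 7 lower members were 1 at a q of 0.01, 15 at a q of 0.10, 3 with a log2 change of at least 1, 4 when adjusted over all 4 tables, and 1 when centred or with the length or GC trend removed. The members' median there, -0.50, was -0.072 with the length trend removed, -0.17 when centred and -0.17 with the GC trend removed. In Hdac3KO DP2 against Hdac3KO DP1 the 0 lower members became 1 at a q of 0.10, and the median of 0.13 was 0.076 with the GC trend removed. For the difference between stages, 0 members became 1 from the stage tables or at a q of 0.10. Of the remaining combinations of a count or median with a setting, counts stayed within 1.5 times and medians within 1.5 times and of the same sign. The cause of these changes was not tested. No paired analysis was possible because each table holds 1 value per group, and no sample could be left out for the same reason. Depth per sample is unknown, so no counting interval is given, and low genes such as Mycn are the least certain.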
